A study of Sus scrofa with 3 samples.

Results

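The T cell and cytotoxic lymphocyte genes described here were 10 mRNA genes taken by symbol from the deposited expression values: GZMH, PRF1, NKG7, CD2, CD3D, CD3E, CD3G, CD4, CD8A and CD247. All 10 were listed, out of 34570 genes of which 22826 were of type mRNA, and all 10 were above 0 in every library. GZMH was chosen by its levels in these libraries, which lay far lower in both castrated groups than in intact pigs, so its values against intact pigs are a description. The question for the other 9 genes was whether they followed GZMH.

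The samples were visceral (retroperitoneal) fat of male Wuzhishan miniature pigs, a small Chinese breed, aged between 6 and 7 months when obtained and older at sampling, after a spell on standard feed and then the study diet. Intact pigs had skin incisions only. Intact males (IM), castrated males (CM) and castrated males given testosterone propionate at 10 mg/kg each week (CMT) all ate a diet high in fat and cholesterol (HFC) for 12 weeks, so no group on a normal diet entered the comparisons. RNA from 4 to 6 pigs, per the labels, was mixed in equal amounts into 1 library per group and sequenced on an Ion Proton instrument. With 1 pooled library per group, no value below has a replicate check, no test between conditions was possible, and differences between pigs cannot be told apart from differences between groups. Both castrated groups were compared with the same IM library.

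A T cell recognises antigen through a receptor whose signal is carried into the cell by the CD3 chains and by the zeta chain, CD247. The co-receptors CD4 and CD8 bind class II and class I MHC molecules. Cytotoxic T cells and natural killer (NK) cells kill by releasing granules that hold perforin, which makes pores in the target membrane, and granzymes, which are proteases. Fat tissue holds resident lymphocytes beside its adipocytes, macrophages and vessels, and visceral fat can also carry lymph nodes.

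Levels are given in UQRPKM, the deposited unit: reads per kilobase of gene, scaled by each library's upper quartile, so levels can be compared between genes per length. The number of reads behind each value was recovered from its decimals. It gave between 15106608 and 16611931 reads per library, of which between 13449107 and 14844063 lay on mRNA genes. Ratios carry an exact 95% Clopper-Pearson interval and levels an exact Poisson interval from these reads. Both cover counting error only and say nothing of the spread between pigs. A gene was counted as higher or lower where the levels differed by at least 1.5-fold with at least 1 UQRPKM in both libraries, the thresholds of the study without its test. The adipocyte marker ADIPOQ, which encodes adiponectin, had 74928, 69193 and 63873 UQRPKM in IM, CM and CMT, far above every gene described below.

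GZMH, which encodes granzyme H, was the only gene of the 10 with a level more than 2-fold apart between groups. It had 62.2 UQRPKM in IM (92 reads), 6.39 in CM (9 reads) and 4.83 in CMT (7 reads). The Poisson intervals of these levels ran from 50.2 to 76.3 in IM, from 2.92 to 12.1 in CM and from 1.94 to 9.96 in CMT, so IM stood apart and the castrated libraries overlapped each other. The log2 ratio was -3.28 in CM versus IM (95% interval -4.46 to -2.30) and -3.69 in CMT versus IM (-5.04 to -2.59), a level 9.74-fold and 12.9-fold lower. Between CMT and CM the log2 ratio was -0.40 with an interval of -2.06 to 1.19, and no difference was detectable at this depth. In bulk tissue, fewer cells that make a transcript and less of it per cell cannot be told apart.

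Its size of fall can be ranked among the mRNA genes that reached 50 UQRPKM in either library and 1 UQRPKM in the other. By that measure GZMH ranked 5 of 8282 in CM versus IM. The gene just above it, LOC100737997, had a log2 ratio of -3.68, and the gene just below it, LOC100519253, had -3.09. In CMT versus IM, GZMH ranked 3 of 8274, between KRT14 at -5.33 and ELP5 at -3.68. GZMH was chosen for its fall and reached 50 UQRPKM in IM only, so these ranks are a description and carry no weight.

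The other genes of the killing machinery did not share a change of that size. PRF1, which encodes perforin, had 50.5 UQRPKM in IM (173 reads), 34.6 in CM (113 reads) and 43.2 in CMT (145 reads). Its log2 ratio was -0.55 in CM versus IM (-0.90 to -0.19), just short of 1.5-fold at 1.46-fold lower, and -0.23 in CMT versus IM (-0.55 to 0.10). CM was thus the lowest library for PRF1, whereas GZMH was low in both castrated groups. Between CMT and CM, the PRF1 log2 ratio of 0.32 had an interval that included 0 (-0.05 to 0.69).

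NKG7, a granule membrane protein of NK and cytotoxic T cells, had 276 UQRPKM in IM (487 reads), 265 in CM (447 reads) and 207 in CMT (359 reads). Against IM, the log2 ratio was -0.05 in CM (-0.24 to 0.13) and -0.41 in CMT (-0.61 to -0.21). Here CMT was the lowest library, also against CM, with a log2 ratio of -0.36 (-0.56 to -0.15).

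Set against its partners within each library, GZMH stood at the level of perforin in IM, within counting error, and far below it in both castrated groups. The ratio of GZMH to PRF1, per length, was 1.23 in IM (95% interval 0.946 to 1.6), 0.185 in CM (0.0823 to 0.363) and 0.112 in CMT (0.0442 to 0.236). The ratio of GZMH to NKG7 was 0.226, 0.0241 and 0.0233 in IM, CM and CMT. These ratios rest on GZMH, which was chosen for its fall, and are descriptive.

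The granzymes differed among themselves. GZMB, which encodes granzyme B and lies next to GZMH in the RefSeq gene order of Sscrofa 11.1, had 29.4 UQRPKM in IM (39 reads), 17.4 in CM (22 reads) and 16.9 in CMT (22 reads). Its log2 ratio of -0.76 in CM versus IM had an interval that included 0 (-1.58 to 0.03), and that of -0.80 in CMT versus IM ended just below 0 (-1.62 to -0.01). GZMB was thus lower in the same libraries as GZMH but by less than 2-fold.

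GZMA, the gene of granzyme A, had 20.7 UQRPKM in IM (34 reads), 26.2 in CM (41 reads) and 29.3 in CMT (47 reads). Its log2 ratios against IM, 0.34 in CM (-0.35 to 1.04) and 0.50 in CMT (-0.17 to 1.18), had intervals that included 0. GZMK had 5.2, 5.46 and 2.9 UQRPKM from 11, 11 and 6 reads in IM, CM and CMT, and GZMM was listed at 0 in all 3 libraries. GZMA and GZMK were named after their values were seen. Some granzyme genes are close relatives, and GZMH lies next to GZMB. How reads that match several genes were assigned is not given in the sources used here. The split of reads between GZMH and close relatives such as GZMB is therefore uncertain.

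GNLY, the gene of the granule protein granulysin, listed in the files as NKL, had a level far above the granzymes, with 1876, 1565 and 1481 UQRPKM in IM, CM and CMT. Its log2 ratios against IM were -0.26 in CM and -0.34 in CMT. FASLG, which encodes the death ligand of killer cells, had 17.3, 10.9 and 15.9 UQRPKM from 20, 12 and 18 reads in IM, CM and CMT. CM was its lowest value, but the interval against IM included 0 (log2 ratio -0.67, -1.83 to 0.44).

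**Figure D1:**
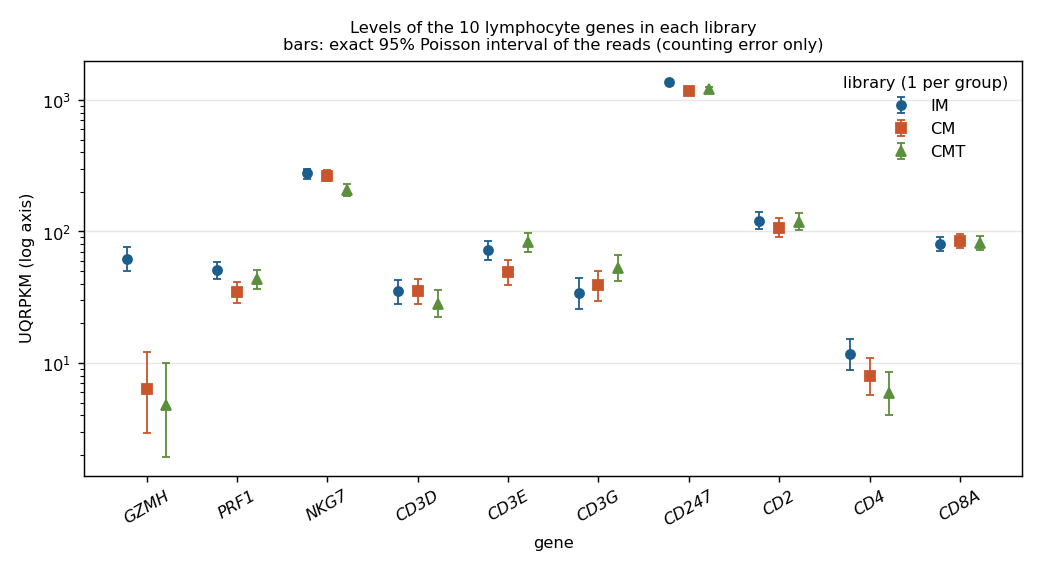
Level of each of the 10 genes in the IM, CM and CMT libraries, in UQRPKM on a log axis, with exact 95% Poisson intervals from the reads as bars (1 pooled library per group). GZMH stood at 62.2 in IM and at 6.39 and 4.83 in the castrated libraries, while the highest level of each of the other 9 genes was at most 1.96-fold its lowest.

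The CD3 chains did not move as one group, although CD3E, CD3D and CD3G are neighbours in the RefSeq gene order and their proteins assemble into 1 complex. CD3E had 71.9 UQRPKM in IM (132 reads), 49.2 in CM (86 reads) and 82.8 in CMT (149 reads). CM was its lowest library, with a log2 ratio of -0.55 against IM (-0.96 to -0.15), which is 1.46-fold lower. CMT was 1.69-fold above CM, with a log2 ratio of 0.75 (0.36 to 1.15), the only one of the 10 genes past 1.5-fold in that comparison.

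CD3D had 35 UQRPKM in IM (92 reads), 35.1 in CM (88 reads) and 28.3 in CMT (73 reads), and all 3 of its ratio intervals included a log2 of 0. CD3G had 34 UQRPKM in IM (55 reads), 38.9 in CM (60 reads) and 53 in CMT (84 reads). CMT was its highest library, 1.56-fold above IM, with a log2 ratio of 0.64 (0.13 to 1.16). The lowest level was in CM for CD3E, in CMT for CD3D and in IM for CD3G. For CD3D this order lay within counting error, as did CD3G between CM and IM (log2 ratio 0.19, -0.36 to 0.75).

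Within a library the level of CD3E was 2.06 times that of CD3D in IM, 1.4 times in CM and 2.92 times in CMT. The ratio of CD3E to CD3G was 2.11, 1.26 and 1.56 in the same order. The ratio of CD3E to the pan-leukocyte gene PTPRC, which encodes CD45 and was named after its values were seen, was 0.724 in IM (0.593 to 0.879), 0.512 in CM (0.402 to 0.646) and 0.745 in CMT (0.618 to 0.895).

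CD247, the zeta chain that T cell and NK cell receptors share, had a level far above the CD3 chains in every library. It had 1378 UQRPKM in IM (3584 reads), 1172 in CM (2905 reads) and 1205 in CMT (3072 reads). The ratio of CD247 to CD3E per length was 19.2 in IM (16.1 to 23), 23.8 in CM (19.2 to 29.9) and 14.5 in CMT (12.3 to 17.3). CD3E was the highest of the CD3 chains in each library, so CD247 stood further above the others.

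With the most reads behind it, CD247 gave the narrowest intervals of the set. Against IM, its log2 ratio was -0.23 in CM (-0.30 to -0.16) and -0.19 in CMT (-0.26 to -0.12), which is 1.18-fold and 1.14-fold lower. Between CMT and CM it was 0.04 (-0.03 to 0.11). The size of these shifts against IM can be read beside those of the scaling, since the median ratio of well-covered genes moved by -0.063 in CM and -0.084 in CMT on the log2 scale.

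CD2, an adhesion receptor of T and NK cells, had 121 UQRPKM in IM (185 reads), 107 in CM (156 reads) and 119 in CMT (178 reads). Its log2 ratios were -0.18 in CM versus IM (-0.49 to 0.14) and -0.03 in CMT versus IM (-0.33 to 0.28). The 3 libraries overlapped within their counting intervals.

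The co-receptors parted from each other. CD8A, the alpha chain of CD8, had 80.2 UQRPKM in IM (259 reads), 84.1 in CM (259 reads) and 82.1 in CMT (260 reads), the most even level of the 10 genes. The log2 ratios against IM were 0.07 in CM (-0.18 to 0.32) and 0.03 in CMT (-0.22 to 0.29). A difference in CD8A beyond 1.25-fold higher in CM lay outside that counting interval.

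CD4, the co-receptor of helper T cells, had 11.7 UQRPKM in IM (58 reads), 8.02 in CM (38 reads) and 5.95 in CMT (29 reads), the lowest level of the set in IM. Its log2 ratio was -0.54 in CM versus IM (-1.17 to 0.07), -0.97 in CMT versus IM (-1.67 to -0.30) and -0.43 between CMT and CM (-1.18 to 0.31). Only CMT versus IM passed 1.5-fold, at 1.96-fold lower.

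The ratio of CD8A to CD4 was 6.88 in IM (5.15 to 9.31), 10.5 in CM (7.45 to 15.2) and 13.8 in CMT (9.39 to 21). The intervals of IM and CMT did not overlap, whereas CM overlapped both. Which cells carried either transcript was not tested. CD8B, the beta chain that pairs with CD8A on classical cytotoxic T cells and the neighbour of CD8A in the RefSeq gene order, had 16.5 UQRPKM in IM (38 reads), 20.5 in CM (45 reads) and 7.08 in CMT (16 reads). CD8B had a log2 ratio of 0.31 in CM versus IM (-0.34 to 0.98), of -1.22 in CMT versus IM (-2.16 to -0.34) and of -1.53 between CMT and CM (-2.45 to -0.68). The beta chain was thus lower in CMT while the alpha chain stayed within 1.05-fold over the 3 libraries.

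**Figure D2:**
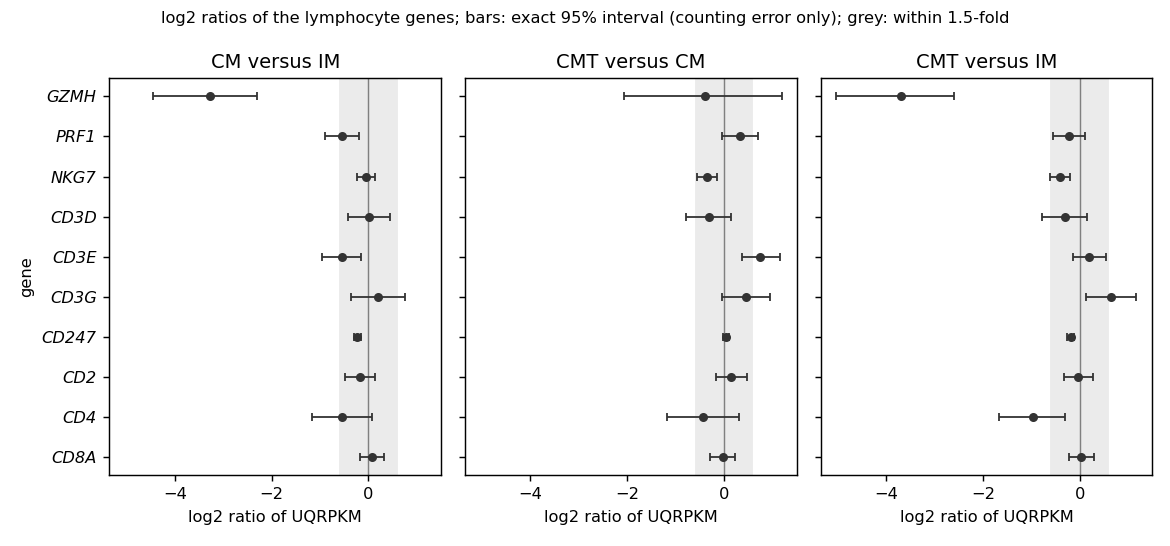
Log2 ratio of UQRPKM of each of the 10 genes in CM versus IM, CMT versus IM and CMT versus CM, with exact 95% Clopper-Pearson intervals from the reads. GZMH lay at -3.28 and -3.69 against IM, and the other 9 genes lay between -0.97 and 0.75 in all 3 comparisons.

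Counted over the set, 1 of the 10 genes was lower and 0 were higher in CM versus IM, the lower one being GZMH. Over the 14123 mRNA genes tested in that comparison, 10.4% were lower and 8.38% were higher. In CMT versus CM, 0 were lower and 1, CD3E, was higher, against 9.97% and 9.53% of 14098 mRNA genes. In CMT versus IM, 2 were lower (GZMH and CD4) and 1 was higher (CD3G), against 11.9% and 8.81% of 14151 mRNA genes. GZMH was chosen for its values in the comparisons with IM, so its own place in these counts carries no weight, and the counts of the other 9 genes lay near the share of all mRNA genes.

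Read by the counting interval alone, 4 genes were lower in CM versus IM (GZMH, PRF1, CD3E and CD247) and 0 were higher, where 23.7% and 14.7% of all mRNA genes with reads were. In CMT versus CM, NKG7 was lower and CD3E was higher by that reading, against 19.4% and 15.8%. In CMT versus IM, GZMH, NKG7, CD4 and CD247 were lower and CD3G was higher, against 26.3% and 13.8%.

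The median log2 ratio of the 9 genes other than GZMH was -0.18 in CM and -0.19 in CMT against IM, and 0.04 between CMT and CM. Over all mRNA genes above 0 in both libraries these medians were -0.06, -0.07 and -0.02. With GZMH the medians of the set were -0.21, -0.21 and 0.00.

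The order of levels was steady at the top and changed at the bottom. CD247, NKG7 and CD2 were the highest 3 in every library, each above the next beyond its counting interval. CD247 was higher than 95.8%, 95.2% and 95.5% of the expressed mRNA genes in IM, CM and CMT. In IM, CD8A, CD3E, GZMH and PRF1 followed, and no neighbours in that run differed beyond the interval of their ratio, with CD3D and CD3G below them and CD4 last.

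In CM, CD8A stood above CD3E, and CD3E, CD3G, CD3D and PRF1 formed a run whose neighbours did not differ beyond counting error. In CMT, CD3E and CD8A were level with each other, CD3G and PRF1 followed, and CD3D came next, below PRF1. CD4 and GZMH were the lowest in both castrated libraries and did not differ from each other there. GZMH moved from above 54% of the expressed mRNA genes in IM to above 20.7% in CM and 18.4% in CMT.

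Beyond the 10 genes, 131 other lymphocyte genes were listed in 6 groups, of which 122 were found in the files and 8 were at 0 in all 3 libraries. In CM versus IM, 13 were lower and 10 were higher of 97 tested, which is 13.4% and 10.3%. In CMT versus CM, 16 were lower and 19 were higher of 97, which is 16.5% and 19.6% against the 9.97% and 9.53% of all mRNA genes given above. In CMT versus IM, 15 were lower and 12 were higher of 95, which is 15.8% and 12.6%. Many of these counts rested on few reads. Against IM, 9 of the 23 genes past 1.5-fold in CM and 13 of the 27 in CMT had under 20 reads in the larger library, as had 17 of the 35 between CMT and CM. Among all mRNA genes with at least 50 reads in one library, 10.9% in CM and 13.3% in CMT passed 1.5-fold against IM, as did 11.9% between CMT and CM, where over all tested genes the shares were 18.8%, 20.7% and 19.5%. The median log2 ratio of the other lymphocyte genes was -0.05 in CM and -0.16 in CMT against IM, and -0.04 between CMT and CM. Under an exact binomial test on the reads with Benjamini-Hochberg adjustment, which compares libraries and not conditions, the 10 genes kept the calls given above. In CM versus IM, CMT versus IM and CMT versus CM, 10.1%, 11.9% and 10.6% of all mRNA genes were called. Of the other lymphocyte genes, 6 of 97, 7 of 95 and 10 of 97 tested were called in the same order.

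In the cytotoxic granule list, 2 of the 12 other genes tested (16.7%), GZMB and FASLG, were lower in CM versus IM and 0 were higher. The shares of all mRNA genes were 10.4% and 8.38%. In CMT versus IM, GZMB and GZMK (16.7%) were lower and 0 were higher, against 11.9% and 8.81%. In CMT versus CM, GZMK was lower and RAB27A, which moves granules to the membrane, was higher (8.33% each), against 9.97% and 9.53%. The intervals of GZMB and FASLG in CM versus IM included 0, as did both of GZMK. Of these, only GZMB was lower than IM in both castrated libraries.

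The other T cell receptor and proximal signalling genes are kinases, adaptors and surface proteins such as CD8B, CD5 and CD6. Of 20 tested in CM versus IM, 3 (15%) were lower, LCK and UBASH3A among them, and 2 (10%) were higher, PRKCQ and TXK. The shares of all mRNA genes were 10.4% and 8.38%. LCK, the kinase that phosphorylates the CD3 and zeta chains, had 67.1 UQRPKM in IM (105 reads), 30.9 in CM (46 reads) and 56.1 in CMT (86 reads). Its log2 ratio was -1.12 in CM versus IM (-1.65 to -0.61) and -0.26 in CMT versus IM (-0.69 to 0.17), and CMT stood above CM at 0.86 (0.33 to 1.41). LCK was therefore lowest in CM, as CD3E and PRF1 were.

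UBASH3A, a negative regulator of receptor signalling named for its call, had 13.9, 8.08 and 13.4 UQRPKM from 54, 30 and 51 reads. PRKCQ, protein kinase C theta, had 4.24, 7.51 and 10.5 UQRPKM. Against IM its log2 ratio was 0.82 in CM (-0.12 to 1.81) and 1.31 in CMT (0.44 to 2.25). The best-covered of these genes, FYN at 506, 441 and 520 UQRPKM and CSK at 283, 217 and 246, both also had their lowest level in CM and stayed within 1.5-fold.

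Of the NK cell receptors and adaptors, 2 were lower and 2 were higher of 14 tested in CM versus IM. That is 14.3% each, against 10.4% and 8.38% of all mRNA genes. CD244, a receptor of NK and cytotoxic T cells, had 24.9 UQRPKM in IM (86 reads), 58.1 in CM (191 reads) and 25.1 in CMT (85 reads). Its log2 ratio was 1.22 in CM versus IM (0.85 to 1.61) and -1.21 in CMT versus CM (-1.59 to -0.83), so CM alone stood apart, on the high side. KLRK1, which encodes the activating receptor NKG2D, had 68.2, 93.9 and 102 UQRPKM from 103, 135 and 151 reads. Against IM it stood at 0.46 in CM (0.08 to 0.84) and 0.58 in CMT (0.21 to 0.96) on the log2 scale. IM was its lowest library, the opposite order to GZMH.

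The NK adaptors HCST (118, 142 and 124 UQRPKM), FCER1G (837, 974 and 858) and TYROBP (661, 704 and 611) stayed within 1.5-fold over IM, CM and CMT. Myeloid cells express FCER1G and TYROBP too. SLAMF7 had 6.56, 5.96 and 15.2 UQRPKM from 15, 13 and 34 reads and was highest in CMT. FCGR3B and CD160 were listed at 0 in all 3 libraries.

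Of the cytokines, cytokine receptors and homing molecules, 4 (16.7%) were lower and 1 (4.17%) was higher of 24 tested in CM versus IM. The shares of all mRNA genes were 10.4% and 8.38%. In CMT versus IM, 3 (12.5%) were lower and 5 (20.8%) were higher of 24, against 11.9% and 8.81%. CCL5, a chemokine of activated T and NK cells, had 841 UQRPKM in IM (932 reads), 607 in CM (641 reads) and 606 in CMT (658 reads), with a log2 ratio of -0.47 in both comparisons with IM. It shared with GZMH a higher level in IM, at 1.39-fold in both. XCL1, another lymphocyte chemokine, had 36.9, 50.9 and 95 UQRPKM from 19, 25 and 48 reads, with a log2 ratio of 1.37 in CMT versus IM (0.57 to 2.22). IL12RB2, a chain of the IL-12 receptor, had 7.11, 2.74 and 4.6 UQRPKM from 30, 11 and 19 reads, with a log2 ratio of -1.38 in CM versus IM (-2.52 to -0.34). IL2, IL4, CCR4, CCR6 and S1PR1 were listed at 0 in all 3 libraries.

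Of the lymphocyte transcription factors, 0 were lower and 3 (18.8%) were higher of 16 tested in CM versus IM. TXK, which stands in the signalling list too, was among the 3. The shares of all mRNA genes were 10.4% and 8.38%. In CMT versus IM, 3 (20%) were lower and 1 (6.67%), again TXK, was higher of 15, against 11.9% and 8.81%. TBX21, which encodes T-bet, the factor of type 1 and cytotoxic lymphocytes, had 57 UQRPKM in IM (210 reads), 53.3 in CM (187 reads) and 34.6 in CMT (125 reads). The log2 ratio of TBX21 was -0.10 in CM (-0.39 to 0.19) and -0.72 in CMT (-1.05 to -0.39) against IM. TBX21 was thus lowest in CMT, as NKG7 and CD8B were. Of the T cell co-receptors and activation genes, 2 (16.7%) were lower and 3 (25%) were higher of 12 tested in CM versus IM, against 10.4% and 8.38%. The 3 higher genes, CD226, TIGIT and SH2D1A, had 19, 3 and 14 reads in the larger library. Among the genes called either way, only SH2D1A had an interval that excluded 0 (log2 ratio 1.88, 0.21 to 3.94). The best-covered members of that list, CD58 (231, 230 and 176 UQRPKM) and CD48 (59, 59.6 and 60.2), stayed within 1.5-fold. CD84, an adhesion receptor of the SLAM family, had 8.57, 5.17 and 12 UQRPKM from 40, 23 and 55 reads, and CMT stood above CM by 1.22 on the log2 scale (0.49 to 1.99).

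**Figure D3:**
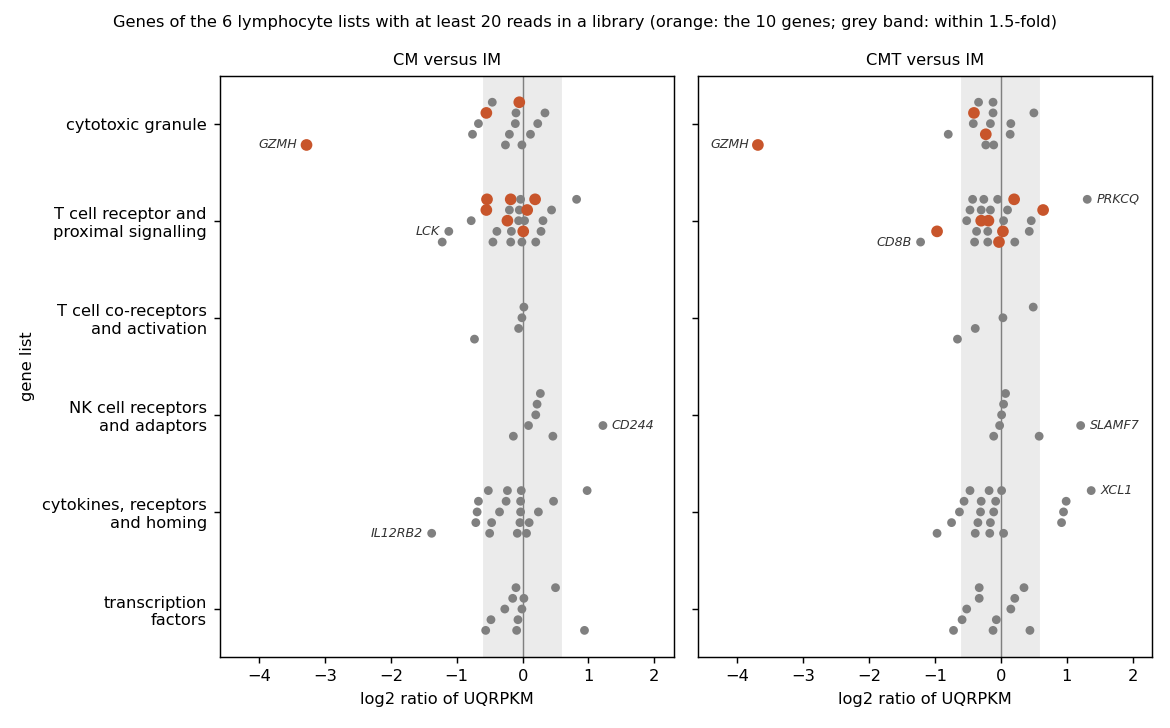
Log2 ratio of UQRPKM of the genes of the 6 lymphocyte lists with at least 20 reads in a library, in CM versus IM (left) and CMT versus IM (right), which share the IM library. The 10 genes are orange, the 71 other genes grey, and the band spans ratios within 1.5-fold. GZMH, which reached 20 reads in IM only, lies at -3.28 and -3.69. No other plotted gene lies as low, but the read limit leaves out LTA, at -3.39 and -3.43 with at most 11 reads.

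The summed levels of other leukocyte lists can be set beside those of the lymphocyte genes. The 9 genes other than GZMH summed to 2058, 1794 and 1827 UQRPKM in IM, CM and CMT. CD247 alone made up 1378, 1172 and 1205 of these sums, so they say little about the genes with lower levels. The pan-leukocyte list summed to 4672, 4269 and 4473, with 0 of its 13 tested genes past 1.5-fold in CM versus IM, although CORO1A and CD37 were listed at 0. PTPRC had 99.3, 96.1 and 111 UQRPKM. The B and plasma cell list summed to 361, 314 and 382 with 18 of 23 genes found, and the lymph node and lymphatic list to 3194, 2513 and 2855 with MADCAM1 at 0. The macrophage list, with 17 of 19 genes found and CD163 at 0, summed to 8181, 7154 and 6581. Of its 16 tested genes, 5 were higher in CM versus IM and 6 were lower in CMT versus CM. The shares of all mRNA genes were 8.38% and 9.97%. EMR1 had 45.6, 93.6 and 30.6 UQRPKM, LYZ 41.4, 97.5 and 26.6, and MARCO 16.8, 37.9 and 10.7, each highest in CM. The best-covered members, C1QC (3222, 2618 and 2452), C1QA (2833, 2100 and 1993) and CSF1R (285, 246 and 221), were each highest in IM.

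The lists of epidermis, hepatocytes, granulocytes and muscle differed more between the libraries than the 9 genes did in sum. The epidermis list, with 12 of 12 genes found, summed to 208, 35.1 and 34 UQRPKM in IM, CM and CMT, high in IM only, as GZMH was. KRT14 had 123 reads in IM but 0 and 3 in the castrated libraries, KRT1 had 111 reads against 2 and 1, and DSG1, DSG3 and LOR were at 0, while DSP went the other way at 2.73, 9.75 and 11.3 UQRPKM. The part of these cells in the GZMH result was not tested.

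The hepatocyte list, with 14 of 15 genes found, summed to 2570, 11228 and 1753 UQRPKM in IM, CM and CMT, and ALB alone had 2.61, 2910 and 4. The granulocyte and mast cell list, with 14 of 16 found, summed to 745, 5104 and 1236, with CSF3R and CPA3 at 0. That sum was carried by S100A12 (323, 2449 and 537 UQRPKM), S100A8 (90.4, 1272 and 193) and S100A9 (85.6, 1157 and 229). CXCR2 (5.08, 4.69 and 4.35) and KIT (34.9, 30.8 and 30.9) were not higher in CM. The sums of the hepatocyte and granulocyte lists, like EMR1, LYZ and MARCO, were highest in CM. In that library CD3E, PRF1 and LCK were lowest, PRF1 within counting error of CMT (log2 ratio 0.32, -0.05 to 0.69), and CD244 was highest. CD3D, CD2 and CD8A did not differ between the libraries beyond counting error. The skeletal muscle list summed to 114, 97.3 and 7267 with TNNT3, CKM and MB at 0. The erythroid list summed to 4640, 4304 and 2418, so CMT held the most muscle and the least globin signal. In CMT, NKG7, CD4, CD8B and TBX21 were lowest, with CD4 within counting error of CM (log2 ratio -0.43, -1.18 to 0.31). CD3E, CD3G, KLRK1, XCL1 and SLAMF7 were highest in CMT, with CD3E within counting error of IM, and CD3G and KLRK1 of CM. CD8A was even over the libraries. The part of any of these cells in the lymphocyte values was not tested. The adipocyte list summed to 155231, 148387 and 123980.

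**Figure D4:**
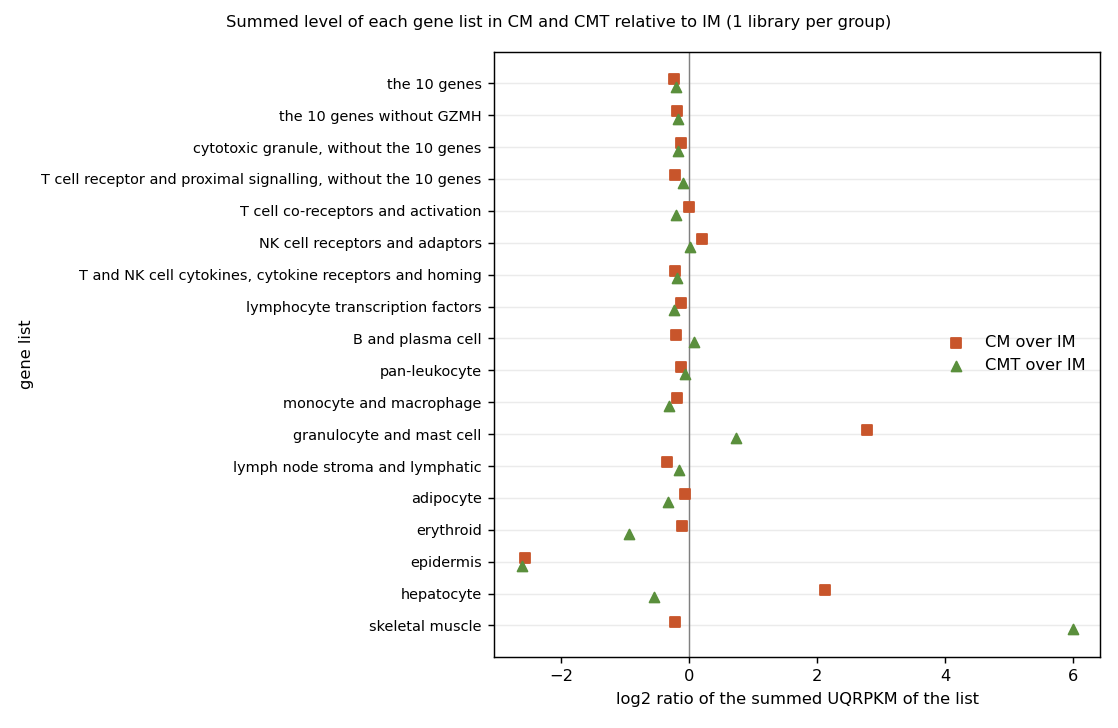
Log2 ratio of the summed UQRPKM of each gene list in CM (squares) and CMT (triangles) relative to the IM library. The sums of the lymphocyte lists lay near 0. They rest mostly on a few abundant genes, such as CD247 among the 10 genes and LAMP1 and CTSC in the granule list. The epidermis sum was lower in both castrated libraries (35.1 and 34 against 208 UQRPKM). The hepatocyte and granulocyte sums were highest in CM, the latter through S100A8, S100A9 and S100A12, and the muscle sum was highest in CMT.

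The genes whose pattern was most like that of GZMH were sought among 12483 mRNA genes with at least 50 reads over the 3 libraries, by the distance between their log2 ratios in CM versus IM and CMT versus IM. The nearest was LOC100518497 at a distance of 0.509, with 22.2, 3.25 and 1.72 UQRPKM from 79, 11 and 6 reads. LOC100520070 (distance 1.429), LOC100738712 (1.673), DNAH1 (1.764) and DUS3L (1.844) followed, and none of the listed lymphocyte genes was among the nearest 5. Below that read minimum, LTA, which encodes lymphotoxin alpha and was named after its values were seen, had 4.68, 0.446 and 0.434 UQRPKM from 11, 1 and 1 reads. Its log2 ratios of -3.39 in CM (-8.82 to -0.61) and -3.43 in CMT (-8.86 to -0.65) against IM were close to those of GZMH, with far wider intervals. For CD3E the nearest 5 were XPNPEP2 (0.006), THOC3 (0.012), FBXO32 (0.014), C7H6orf141 (0.015) and LOC100511482 (0.031). The likeness rests on 3 libraries only.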

How the data were processed

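RNA-Seq of 3 libraries, IM, CM and CMT, each of pooled RNA, was analysed. Samples were grouped by their labels. After quality filtering, the authors aligned reads with MapSplice (genome Sscrofa 10.2) and deposited modified RPKM values (UQRPKM) scaled by the upper quartile of each library. The counting tool, the annotation and the handling of reads that match several genes are not given in the sources used here. The member genes and the lists were chosen with earlier results of these data known.

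Reads were recovered as the values times gene length and upper quartile, with upper quartiles of 149 (IM), 142 (CM) and 146 (CMT). The shortest length that gave whole reads in all libraries was taken, so reads can be too low by a common factor. This gave whole reads for 100% of 20838 genes above 0, within a relative error of 7.65e-09. Reads served for intervals and depth, and UQRPKM gave all ratios, without a pseudocount. The recovery and the counts were tested on simulated data.

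Of 289 listed genes, 246 matched by symbol and 17 through RefSeq synonyms of Sscrofa 11.1, and 26 did not match. Coordinates and sequences were not used here. Some listed genes are counted but not reported singly here. Named genes were the 10 genes and, per list, up to 4 with the largest ratios against IM among those with at least 20 reads, up to 3 with the most reads, and defining genes at 0. Genes named for a count of 5 or fewer, and PTPRC, GZMA, GZMK and LTA, were chosen after their values were seen. Alternatives were other scalings, a pseudocount of 1, a 2-fold threshold, other filters on low values and a Benjamini-Hochberg adjusted exact binomial test on the reads at 0.05, which compares libraries, not conditions. Python 3.11.15, numpy 2.4.6, pandas 2.3.3 and scipy 1.17.1 were used.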

Additional observations from a re-analysis of the deposited data

How the results depend on the processing

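With 1 pooled library per group, no alternative could address the spread between pigs, and genes with few reads set the limit of what could be seen. The median log2 ratio of the 10 genes ranged from -0.21 to -0.14 in CM versus IM, from 0.00 to 0.04 in CMT versus CM and from -0.21 to -0.12 in CMT versus IM over all scalings, the pseudocount and the filters. Under other scalings and the pseudocount, no ratio past 1.5-fold changed sign, and 89 of 90 single-gene ratios stayed within their counting interval, the exception being CD247 in CMT versus IM under scaling by the median ratio. At 2-fold, the genes past the threshold numbered 0 in place of 1 in CMT versus CM and 1 in place of 3 in CMT versus IM, and the other lymphocyte genes numbered 9 in place of 23 in CM and 11 in place of 27 in CMT against IM, and 12 in place of 35 between CMT and CM. The share of all mRNA genes past 2-fold is not given here, so the 2-fold counts have no background beside them. With the exact binomial test added, the other lymphocyte genes numbered 6 of 97 in CM versus IM, 7 of 95 in CMT versus IM and 10 of 97 in CMT versus CM. The shares of all mRNA genes were 10.1%, 11.9% and 10.6%. The calls of the 10 genes were the same. A pair of readings was added after seeing the data. Where the counting interval had to exclude 0, 4 (CM versus IM), 5 (CMT versus IM) and 2 (CMT versus CM) of the 10 genes were past it in place of 1, 3 and 1, and without GZMH 0 were past 1.5-fold in CM versus IM. No paired analysis was possible because each group is 1 library.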
